A study of Homo sapiens with 4 samples.

Results

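The mRNAs of 10 receptors of the transforming growth factor β (TGF-β) superfamily were compared between LX-2 cells given the miRNA miR-6133-5p and those given miControl. They were chosen by name, with earlier results of these data known, and no measured value enters the rule. They comprise the type II receptors *TGFBR2*, *BMPR2*, *ACVR2A* and *ACVR2B*, the type I receptors *TGFBR1*, *ACVR1B*, *BMPR1A* and *ACVR1*, and the co-receptors *TGFBR3* and *ENG*. They are 10 of 63677 genes in the count table and of 18252 genes with enough counts to be tested, and all 10 were tested. The question was whether *TGFBR2* fell on its own or together with the receptors of its family.

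LX-2 is an immortalized human line of hepatic stellate cells, which lay down collagen in the liver when activated. The miR-6133-5p group (2 libraries) carried a synthetic mimic of this human miRNA at 20 nM, and the miControl group (2 libraries) carried the supplier's negative control mimic at the same dose. Every library of both groups also received rhTGF-β1, the recombinant TGF-β1 ligand, at 5 ng/mL from 24 h after transfection, and RNA was taken 24 h later, so no library here shows cells without added ligand. All libraries come from this 1 line, and the labels call them replicates 1 and 2 without saying whether they were separate cultures, so the p-values measure only the spread between these libraries, which may be technical.

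Ligands of this superfamily are dimers that bring together type II and type I receptors, both of which are serine/threonine kinases. The type II receptor phosphorylates the type I receptor, which then phosphorylates SMAD proteins: TGF-β and activin receptors mainly SMAD2 and SMAD3, BMP receptors mainly SMAD1, SMAD5 and SMAD9. Co-receptors bind ligand and pass it on but carry no kinase. In stellate cells the TGF-β branch is known as a strong inducer of collagen synthesis.

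The miRNA gene *MIR6133* lies at chr7:133290881-133290988 on the plus strand of GRCh38.p14, and its hairpin precursor in RefSeq has 108 bases. It is shown because the mimic stands for an arm of it. No letters are in capitals, since the entry of the mature arm was not used here and no seed was marked.
MIR6133 hairpin: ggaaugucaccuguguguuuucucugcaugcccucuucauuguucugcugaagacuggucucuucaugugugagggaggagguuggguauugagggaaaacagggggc

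Counts on genes summed to between 51862006 and 93811213 per library, the largest total being that of miR-6133-5p replicate 2. Levels are given as CPM (counts scaled to a common library size after TMM), by which 1 count was worth between 0.0101 and 0.0203 CPM. The members lay between 4.68 and 1054 CPM in single libraries, so none was near the limit of detection. The summed level of 13 stellate and mesenchymal markers ran from 8552 to 9123 CPM in the miControl libraries and from 5735 to 6357 CPM in the miR-6133-5p libraries. Most of this drop lay in *COL1A1* (group means 2917, then 1064 CPM) and *SPARC* (3639, then 2751 CPM). *VIM* (1815, then 1793 CPM) and *PDGFRB* (41.7, then 42.8 CPM) differed little, and *TIMP1* was higher under the mimic (192, then 257 CPM). Of the 9 markers tested, 6 had a log2 fold change below 0 and 3 above. By the rule given below, 3 were called lower and 0 higher. Of the 13, 4 (*DES*, *LRAT*, *GFAP* and *HGF*) were under 1 CPM throughout. The endothelial marker *PECAM1* was not matched to a single ID and is left out of its list. The sums for hepatocyte, endothelial and macrophage lists were at most 5.88 CPM in every library, with *TTR* and *CD163* at 0 counts throughout. Those of the cholangiocyte list, nearly all of it from *KRT7*, were 3.70 to 4.59 and 6.82 to 7.32 CPM, and the part of these markers in the receptor results was not tested. In bulk RNA, a lower level in every cell and a lower number of cells with the mRNA cannot be told apart.

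*TGFBR2* showed the largest fall of the 10 receptors, to 20.2% of its miControl level, but it did not fall alone. *BMPR2*, *ACVR1* and *ENG* also fell, to 32.0%, 47.7% and 50.9%, whereas *TGFBR3* rose to 2.82 times its miControl level. *TGFBR1*, *ACVR1B*, *BMPR1A*, *ACVR2A* and *ACVR2B* were not called in either direction. A gene was called lower or higher when edgeR's quasi-likelihood test gave a Benjamini-Hochberg adjusted p under 0.01 over all tested genes and a log2 fold change beyond 0.8 in size. By this rule 4 of the 10 receptors were lower, against 5.54% of all tested genes, and 1 was higher, against 2.90%. The 4 include *TGFBR2*, whose fall in these libraries the study had already reported. Adjusted p alone, without regard to size, gave the same counts of 4 and 1 receptors, against 10.9% and 7.96% of tested genes. The median log2 fold change was −0.28 over the receptors and 0.03 over all tested genes.

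**Figure D1:**
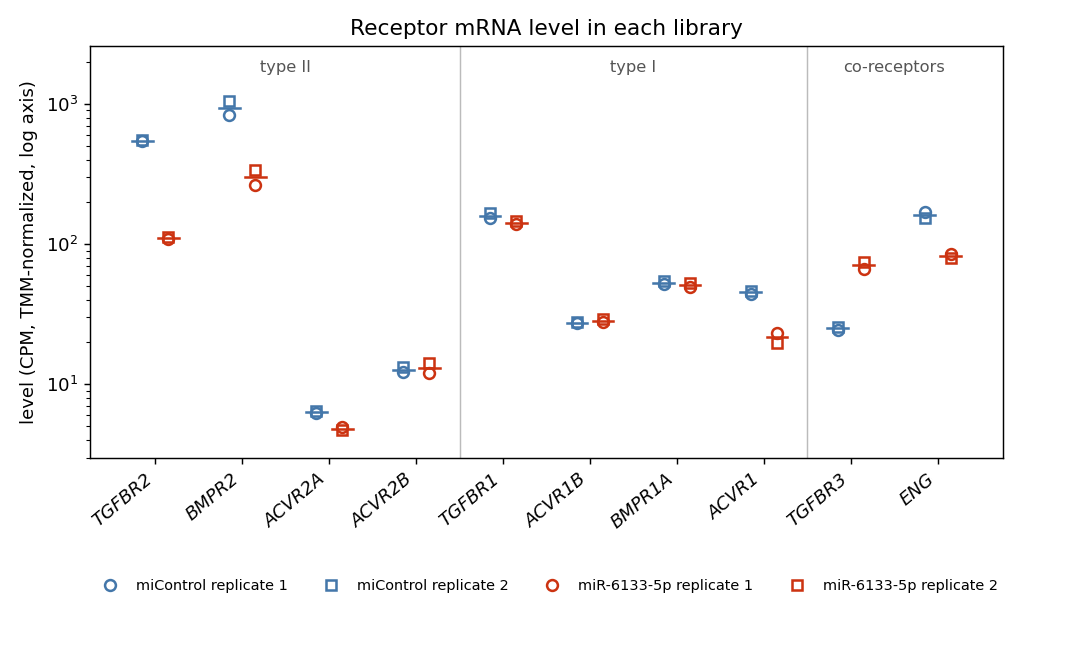
Level of each receptor in each of the 4 libraries, in CPM on a log axis, with circles for replicate 1, squares for replicate 2 and a bar at each group mean. The miR-6133-5p libraries of *TGFBR2* lie at 109 and 112 CPM, far below the miControl libraries at 542 and 552 CPM, and those of *TGFBR3* lie above theirs.

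Among the type II receptors, *TGFBR2* (ENSG00000163513) encodes the receptor that binds TGF-β itself and starts signalling through *TGFBR1*. The gene occupies chr3:30648093-30735634 on the plus strand of GRCh37 and has 7 exons in its canonical transcript, and the receptors that follow are placed on the same build. Its level was 542 and 552 CPM in the miControl libraries and 109 and 112 CPM in the miR-6133-5p libraries. The replicates of each group were close together, and the groups were far apart. The mean went from 547 ± 7.44 to 111 ± 1.64 CPM (SD, n = 2 per group), a log2 fold change of −2.31 with a standard error of 0.105, a 95% interval from −2.53 to −2.08 and an adjusted p of 1.98e-08 in edgeR's quasi-likelihood test. *TGFBR2* took rank 80 of the 18252 tested genes in order of fall, and 0.433% of them fell further by their point estimates.

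*BMPR2* (ENSG00000204217, chr2:203241050-203432474, plus strand) encodes the type II receptor of the BMP branch and is known for its mutations in pulmonary arterial hypertension. Its miControl libraries had 835 and 1054 CPM and its miR-6133-5p libraries 266 and 339 CPM. Replicate 2 was the higher of the pair in each group, and the groups did not overlap. The log2 fold change was −1.64 (SE 0.141, 95% interval −1.95 to −1.34, edgeR adjusted p = 2.12e-06), with rank 281 of the tested genes. The spread of *BMPR2* within groups, with SDs of 154 and 51.7 CPM around means of 944 and 302 CPM, was wider than that of *TGFBR2*.

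*ACVR2A* and *ACVR2B* encode the type II receptors for activins, which some BMPs use as well. *ACVR2A* (ENSG00000121989, chr2:148602086-148688395, plus strand) had 6.24 and 6.46 CPM with miControl and 4.97 and 4.68 CPM with miR-6133-5p. Both miR-6133-5p libraries were below both miControl libraries, but the log2 fold change of −0.40 (95% interval −0.724 to −0.073) had an edgeR adjusted p of 0.0623 and was not called. Exons of other genes on the opposite strand, among them *ORC4*, cover 8.39% of its exon bases, and the strand setting of the counting is not given in the sources used here. *ACVR2B* (ENSG00000114739, chr3:38495381-38534633, plus strand) had 12.2 and 13.3 CPM with miControl against 11.9 and 14.2 CPM with miR-6133-5p, and the groups overlapped. Its log2 fold change was 0.04 in edgeR (95% interval −0.241 to 0.327, adjusted p = 0.848), and it was −0.03 without miControl replicate 1 and −0.11 without miR-6133-5p replicate 2. The fall among type II receptors was thus measured in *TGFBR2* and *BMPR2* and called in neither activin receptor.

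Among the type I receptors, *TGFBR1* (ENSG00000106799, chr9:101866320-101916474, plus strand) encodes the kinase that works with TGFBR2 in the TGF-β receptor complex. It had 153 and 166 CPM with miControl and 140 and 145 CPM with miR-6133-5p. The groups did not overlap, but the gap between them was smaller than the distance between the miControl libraries. The log2 fold change of −0.16 (SE 0.103, 95% interval −0.386 to 0.0603) was not called (edgeR adjusted p = 0.265), and with library totals alone in place of TMM it was 0.0012. The interval excludes a fall of the size seen in *TGFBR2*.

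*ACVR1B* (ENSG00000135503, chr12:52345483-52390862, plus strand), the type I receptor for activins, had 27.2 and 27.7 CPM with miControl and 27.6 and 29.2 CPM with miR-6133-5p. *BMPR1A* (ENSG00000107779, chr10:88516353-88692582, plus strand), a type I receptor for BMPs, had 51.6 and 54.8 CPM with miControl and 49.2 and 52.4 CPM with miR-6133-5p. In each gene the groups overlapped. The log2 fold changes in edgeR were 0.05 for *ACVR1B* (95% interval −0.18 to 0.281, adjusted p = 0.776) and −0.07 for *BMPR1A* (95% interval −0.287 to 0.155, adjusted p = 0.682). That of *ACVR1B* turned to −0.0047 without miR-6133-5p replicate 2 and that of *BMPR1A* to 0.10 with library totals alone. *BMPR1A* has the annotated pseudogenes *BMPR1AP1* and *BMPR1AP2*, so reads could have been divided among copies and its value is less certain.

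*ACVR1* (ENSG00000115170, chr2:158592763-158732842, minus strand) encodes a type I receptor that signals to the BMP SMADs and is known as the gene mutated in fibrodysplasia ossificans progressiva. It stood apart from the other type I receptors among the members, with 44.2 and 46.3 CPM in the miControl libraries and 23.4 and 19.8 CPM in the miR-6133-5p libraries. Both treated libraries lay far under both controls. The fall of 1.07 on the log2 scale (SE 0.115, 95% interval −1.32 to −0.82, adjusted p = 1.51e-05) was called by edgeR's quasi-likelihood test. When the test asked for a change significantly beyond 0.8 (glmTreat), its adjusted p was 0.110 and the call was lost.

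The co-receptors moved in opposite directions. *ENG* (ENSG00000106991, chr9:130577292-130616937, minus strand) encodes endoglin, which binds TGF-β and BMP ligands and is best known from endothelial cells. Its miControl libraries had 170 and 153 CPM and its miR-6133-5p libraries 84.9 and 79.6 CPM, without overlap. The log2 fold change was −0.97 in edgeR (SE 0.107, 95% interval −1.21 to −0.744, adjusted p = 1.74e-05), and glmTreat gave an adjusted p of 0.329, so that this call was also lost. An unnamed gene on the opposite strand, ENSG00000225032, covers 8.15% of the exon bases of *ENG*.

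*TGFBR3* (ENSG00000069702, chr1:92145900-92371892, minus strand) encodes betaglycan, which presents TGF-β, and TGF-β2 in particular, to TGFBR2. It had 24.6 and 25.6 CPM with miControl and 66.9 and 74.5 CPM with miR-6133-5p. It was the only one of the 10 with both miR-6133-5p libraries above both miControl libraries. The log2 fold change was 1.49 (SE 0.108, 95% interval 1.26 to 1.73, edgeR adjusted p = 5.08e-07), and 98.8% of all tested genes had a lower value.

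Counting groups that did not overlap, without regard to size, both miR-6133-5p libraries were below both miControl libraries in 6 of the 10 receptors and above them in 1, and 3 overlapped. Over all tested genes these shares were 31.3% below and 33.2% above. The 6 were the 4 receptors called lower, *TGFBR1* and *ACVR2A*.

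**Figure D2:**
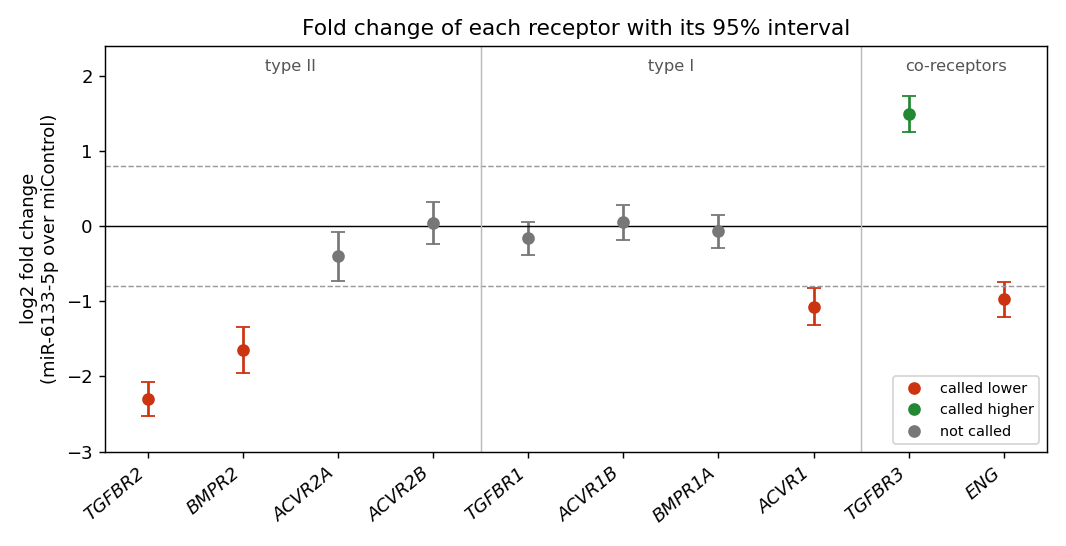
Log2 fold change of each receptor (points) with its 95% interval (bars) from the edgeR fit, ordered by receptor type; dashed lines mark 0.8 in both directions. *TGFBR2*, *BMPR2*, *ACVR1* and *ENG* lie under the lower line with the upper end of the interval of *ENG*, at −0.744, above it, and *TGFBR3* lies over the upper line. Among the grey points, *TGFBR1* and *BMPR1A* change sign with library totals alone and *ACVR1B* and *ACVR2B* when single libraries are left out.

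To test whether the fall of *TGFBR2* differed from that of each other receptor, the fit was repeated with the *TGFBR2* counts of each library in place of its total, so that every fold change was relative to *TGFBR2*. All 9 other receptors had a log2 fold change above that of *TGFBR2* at an adjusted p under 0.01. The same was true of 94.6% of the other 18251 genes tested, and 10 genes fell significantly further than *TGFBR2*. A log2 fold change above that of *TGFBR2* was therefore the rule among genes and not a feature of the receptors.

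*BMPR2* was the nearest of the receptors to *TGFBR2*. Its log2 fold change exceeded that of *TGFBR2* by 0.66, with an adjusted p of 0.000114 in this edgeR fit, and with the errors of both genes combined the 95% interval ran from 0.283 to 1.04. Leaving out single libraries gave differences from 0.494 to 0.825, with adjusted p-values up to 0.00987, so the difference held in each case but at the edge of the threshold. Within libraries, *TGFBR2* had 0.648 and 0.524 counts per count of *BMPR2* with miControl and 0.412 and 0.330 with miR-6133-5p. These ratios do not depend on how libraries are scaled, and they did not overlap.

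The differences from *TGFBR2* were 1.24 for *ACVR1* (combined 95% interval 0.901 to 1.57) and 1.33 for *ENG* (1.01 to 1.66). They were 1.91 for *ACVR2A*, 2.14 for *TGFBR1*, 2.24 for *BMPR1A*, 2.35 for *ACVR2B* and 2.36 for *ACVR1B*, with overlapping intervals. The largest was 3.80 for *TGFBR3* (3.48 to 4.13). The ratio to *TGFBR2* within libraries separated the groups for each of the 9, and the exact 2-sided permutation test gave p = 0.333 each time, the smallest value that 2 against 2 libraries allow.

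**Figure D3:**
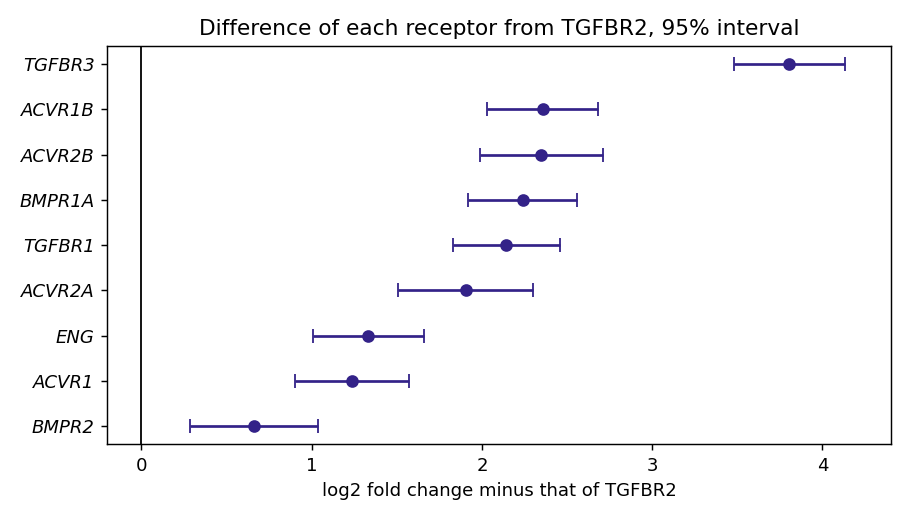
Difference in log2 fold change of each of the 9 other receptors from *TGFBR2* (points), with 95% intervals from the errors of both genes (bars); the line at 0 stands for the same fold change as *TGFBR2*. Every interval lies to the right of the line, that of *BMPR2* nearest to it at 0.283.

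To compare levels between receptors, CPM was divided by the length of the canonical transcript in kb. With miControl, *TGFBR2* had the highest level per length (121 ± 1.64 CPM per kb, SD, n = 2), before *BMPR2* (78.3 ± 12.8) and *ENG* (54.8 ± 4.19). *TGFBR1* had 24.6 and *ACVR1* 13.6 CPM per kb, and the order continued with *BMPR1A* at 8.29, *ACVR1B* at 6.05, *TGFBR3* at 3.96, *ACVR2A* at 1.22 and *ACVR2B* at 1.08. The miControl libraries of neighbours in this order did not overlap, but the order depends on the length used. With all annotated exons joined as the length, *ACVR1* was at 4.60 CPM per kb, rank 7 in place of 5, below *BMPR1A* at 5.28 and *ACVR1B* at 4.85, and *TGFBR2* at 79.8 and *BMPR2* at 75.5 were no longer separated in both libraries. By either length, the activin type II receptors were the least abundant of the 10.

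With miR-6133-5p, the receptors at the top came together: *ENG* had 27.9 ± 1.27, *BMPR2* 25.0 ± 4.28, *TGFBR2* 24.4 ± 0.363 and *TGFBR1* 21.9 ± 0.612 CPM per kb. The libraries of *BMPR2* spanned those of *TGFBR2* and overlapped those of *ENG* and *TGFBR1*, so the place of *BMPR2* among them was not resolved. *ENG* lay above *TGFBR2* in both treated libraries. Next came *TGFBR3* at 11.2 CPM per kb, now above *BMPR1A* at 7.91, *ACVR1* at 6.48 and *ACVR1B* at 6.27, the last pair with overlapping libraries. With joined exons, *TGFBR2* had rank 4 in place of 3 with miR-6133-5p, below *TGFBR1*, and *ACVR1* rank 8 in place of 7, at 2.19 CPM per kb. By that length the mean of *BMPR2*, at 24.2 CPM per kb, was above that of *ENG* at 21.4.

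The make-up of each receptor class changed accordingly. *TGFBR2* exceeded *TGFBR1* per length 5.09 and 4.76 times in the miControl libraries, and 1.12 and 1.10 times in the miR-6133-5p libraries. With joined exons the ratios were 4.14 and 3.87, then 0.914 and 0.897, so the sign of the small difference left in the treated libraries depends on the length. *TGFBR2* made up 62.6% and 57.6% of the 4 type II receptors with miControl and 50.2% and 45.0% with miR-6133-5p. *BMPR2* made up 36.2% and 41.3%, then 45.7% and 51.2%. So the share of *BMPR2* was higher in both treated libraries although its own level had fallen, and with joined exons it was 45.3% and 50.5%, then 54.8% and 60.2%.

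Summed over the 4 genes of each class, type II exceeded type I receptor mRNA per length 3.76 and 3.91 times with miControl and 1.14 and 1.28 times with miR-6133-5p. In the type I class, *ACVR1* made up 26.1% and 25.7% of the 4 with miControl and 16.6% and 13.8% with miR-6133-5p. Its share was much smaller by the joined exon length, at 13.4% and 13.1%, then 8.03% and 6.59%, and lower with miR-6133-5p by either length. *TGFBR3* made up 6.28% and 7.23% of the co-receptor mRNA with miControl, against 26.8% and 30.3% with miR-6133-5p. None of these ratios and shares overlapped between the groups by either length. In the BMP branch, *BMPR2* exceeded *BMPR1A* per length 8.61 and 10.2 times with miControl and 2.87 and 3.44 times with miR-6133-5p. With joined exons these ratios were 13.0 and 15.5, then 4.36 and 5.21, also without overlap.

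**Figure D4:**
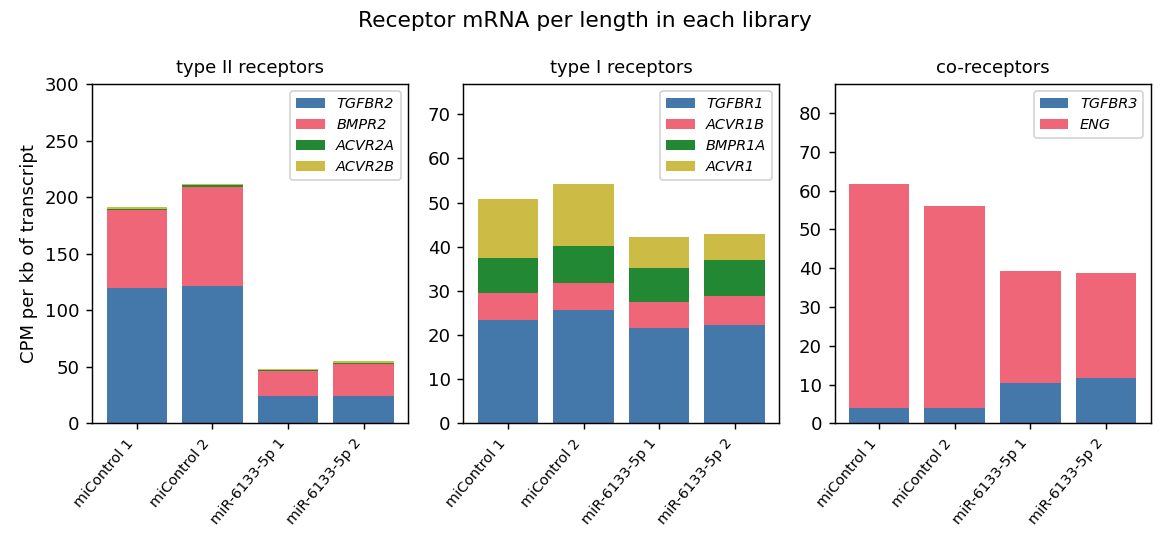
Receptor mRNA in CPM per kb of canonical transcript, stacked by gene, for each of the 4 libraries and each receptor class, with its own linear axis from 0 in each panel. The type II bars are much shorter in the miR-6133-5p libraries, the type I bars differ mainly in *ACVR1*, and *TGFBR3* takes 26.8% and 30.3% of the co-receptor bars there.

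The genes whose levels followed *TGFBR2* most closely over the 4 libraries were *PRRX1*, *TIMP3*, *INHBA*, *MICALL1* and *TP53I11*. They were the 5 nearest to it, by Euclidean distance between centred log2 CPM values, among 9510 genes whose mean log2 CPM was 3 or more, with distances from 0.0485 to 0.155. Their log2 fold changes lay between −2.41 and −2.29, close to that of *TGFBR2* by the way they were picked. No other receptor was among them, which follows from the differences given above.

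Promoters are shown for *TGFBR2* and *TGFBR3*, since these receptors moved furthest in opposite directions, as the 250 bases before an annotated start, with the GC box GGGCGG or its reverse complement CCGCCC in capitals and the sequence on the gene's own strand (RefSeq, GRCh38.p14). The first lies at chr3:30606351-30606600 on the plus strand and the second at chr1:91886152-91886401 on the minus strand.
TGFBR2 promoter: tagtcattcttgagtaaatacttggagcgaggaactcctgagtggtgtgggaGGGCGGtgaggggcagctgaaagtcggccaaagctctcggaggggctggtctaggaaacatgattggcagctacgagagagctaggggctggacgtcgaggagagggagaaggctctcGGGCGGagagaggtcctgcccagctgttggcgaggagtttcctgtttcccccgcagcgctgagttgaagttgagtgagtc
TGFBR3 promoter: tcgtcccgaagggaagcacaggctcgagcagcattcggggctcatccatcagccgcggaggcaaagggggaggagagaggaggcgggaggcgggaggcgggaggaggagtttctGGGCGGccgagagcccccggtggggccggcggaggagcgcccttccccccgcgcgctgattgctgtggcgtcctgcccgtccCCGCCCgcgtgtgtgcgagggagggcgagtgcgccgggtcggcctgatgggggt
Each of these windows held 2 matches, and another *TGFBR2* start held 0. RefSeq gave 21 start windows for the 10 receptors, of which 10 (47.6%) held GGGCGG on either strand, against 42.6% of 35116 windows of the same length. *TGFBR1* had more windows than any other receptor, some of them overlapping, so the windows are not independent. By gene, 7 of the 10 receptors had a match in at least 1 window, and *ENG*, *ACVR2A* and *BMPR1A* had none. No share by gene was counted over all genes. All motifs were searched on both strands, and none holds another. The AP-1 element TGANTCA was found in 1 window, of *ACVR1*, and in 6.57% of all windows. The TATA box TATAAA was found in 1 window, of *BMPR1A*, and in 10.7% of all. The SMAD-binding palindrome GTCTAGAC was in 0 of the 21, and in 0.182% of all windows. GGGCGG thus occurred in windows of receptors that fell, that rose and that were not called.

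The rest of the pathway was described by lists chosen by role. Their counts stand beside the 5.54% of all tested genes called lower and 2.90% called higher. Of 13 other receptors and co-receptors, 9 were tested, with 2 called lower, 0 higher and a median log2 fold change of −0.18. *RGMB*, a BMP co-receptor, had 1157 and 1150 CPM with miControl against 384 and 371 CPM with the mimic. Its log2 fold change was −1.61 (SE 0.102, edgeR adjusted p = 2.03e-07), beside −1.64 for *BMPR2*. *BMPR1B*, a type I receptor for BMPs, went from 3.38 and 3.12 CPM to 1.68 and 1.66 CPM, a log2 fold change of −0.96 (SE 0.21, edgeR adjusted p = 0.00373). This call was lost without either miControl library (adjusted p = 0.0546 and 0.0219) and with library totals alone, where the value was −0.79. *AMHR2*, *HFE2* and *TDGF1* had 0 counts in every library, which allows up to 0.061 CPM by 3 counts in the smallest library, and *RGMA* had at most 8 counts.

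Of 28 ligands, 14 were tested, with 3 called lower, 1 higher and a median of −0.04. *INHBA*, the subunit of activin A, had 482 and 530 CPM with miControl against 102 and 106 CPM with the mimic. The log2 fold change was −2.29 (SE 0.109, edgeR adjusted p = 2.46e-08). *TGFB2*, the ligand for which betaglycan matters most, had 315 and 330 CPM against 111 and 109 CPM, a log2 fold change of −1.55 (SE 0.103, edgeR adjusted p = 2.83e-07). Both ligands kept their call in every alternative run. *GDF11*, a ligand of the activin receptors, had a log2 fold change of −0.82 that lost its call with library totals alone (−0.66), without miControl replicate 1 (−0.78) and without miR-6133-5p replicate 2 (−0.80). *BMP4* had 3.13 and 3.87 CPM with miControl and 6.48 and 6.10 CPM with miR-6133-5p, and its log2 fold change of 0.84 lost its call without miControl replicate 1 (0.69), miControl replicate 2 (0.98) or miR-6133-5p replicate 1 (0.78). *TGFB1*, singled out after its values were seen because its protein was the added ligand, had 217 and 178 CPM against 229 and 193 CPM. Its groups overlapped, and it was not called.

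Of 8 extracellular antagonists, 6 were tested, with 1 called lower, 1 higher and a median of −0.53. *FST* and *FSTL3*, which both encode binders of activin, went in opposite directions: *FST* had 9.84 and 9.33 CPM with miControl and 2.83 and 2.06 CPM with miR-6133-5p (log2 fold change −1.98, SE 0.177), and *FSTL3* had 41.7 and 35.5 CPM against 89.7 and 89.0 CPM (log2 fold change 1.21, SE 0.11).

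All 10 SMADs and corepressors were tested, and only *SMAD1*, a BMP SMAD, was called, with 14.0 CPM in each miControl library and 7.40 and 8.35 CPM with miR-6133-5p (log2 fold change −0.83, SE 0.128). That call was lost with library totals alone (−0.66) and without miControl replicate 1 (−0.84, adjusted p = 0.0126 in edgeR) or miR-6133-5p replicate 1 (−0.76). The list's median was −0.08. For *SMAD2*, *SMAD3* and *SMAD4*, named after their values were seen because they carry the TGF-β signal, the log2 fold changes were 0.03, 0.41 and −0.05. *SMAD2* and *SMAD4* overlapped between the groups and changed sign with the setting, from −0.05 to 0.19 and from −0.16 to 0.12. *SMAD3* had 108 and 107 CPM against 139 and 148 CPM, with an edgeR adjusted p of 0.00767 and a change under 0.8 in size. None of these 3 was called lower.

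Of 19 tested regulators of receptor turnover and activity, 1 was called lower, 0 higher, and the median was −0.10. *MMP14*, a membrane protease that can shed betaglycan, had 182 CPM in each miControl library and 77.7 and 84.6 CPM with miR-6133-5p (log2 fold change −1.17, SE 0.104). By adjusted p alone 7 of the 19 were lower and 0 higher, against 10.9% and 7.96% of all tested genes. Apart from *MMP14*, those 7 had changes under 0.8 in size. In the other lists 3 of 9 other receptors, 3 of 14 ligands and 2 of 6 antagonists were lower by this measure, and 0, 1 and 1 higher. Of the 10 SMADs and corepressors 2 were lower and 1 higher, and of the 11 direct targets 5 and 2.

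Of 11 genes known as direct targets of the SMADs, 2 were called lower, 1 higher, and the median was −0.31. *CTGF*, a matricellular growth factor, had a log2 fold change of −2.31 (SE 0.114) and *LTBP2*, a binding protein of the matrix, −0.90 (SE 0.117). The call of *LTBP2* was lost with library totals alone (−0.74) and without miR-6133-5p replicate 1 (−0.78). *ID1*, a target of the BMP branch, had 11.2 and 10.5 CPM with miControl and 24.6 and 20.1 CPM in the treated libraries, which gives 1.04 on the log2 scale (SE 0.132). So among these targets the called genes did not all move in 1 direction. *SMAD7*, *SKIL* and *PMEPA1* are counted here and in another list.

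**Figure D5:**
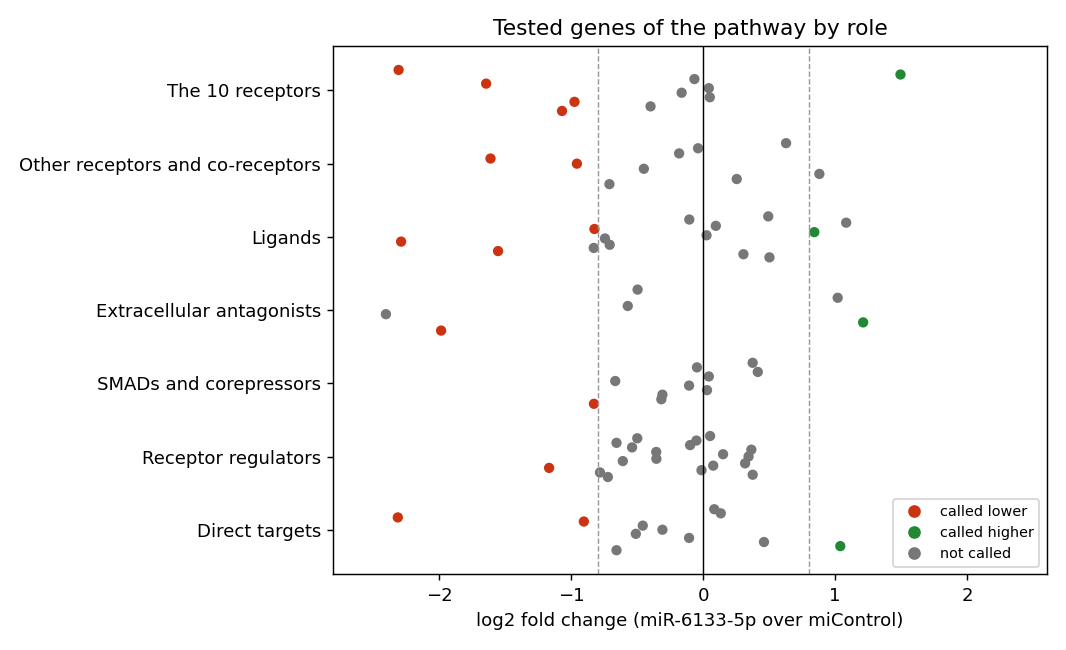
Log2 fold change of every tested gene of the 10 receptors and of 6 pathway lists, 1 row per list, with vertical position inside a row arbitrary; red points were called lower, green points higher and grey points not called. The receptors include 4 red points and 1 green, and the SMADs and the regulators 1 red point each.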

How the data were processed

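RNA sequencing was done on 4 libraries, 2 per group. Per the labels and the methods, the libraries were stranded mRNA libraries read in pairs. The submitters' processing notes name STAR 2.5.3a, featureCounts of Subread 1.6.4 and GRCh37, and the annotation release is not given in the sources used here. The authors deposited whole-number counts per Ensembl gene without normalization. The counts per uniquely mapped pair were 1.68 to 1.70, so counts are not single fragments.

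Genes were filtered with filterByExpr, scaled by TMM and tested with glmQLFit and glmQLFTest in edgeR 4.0.16 (R 4.3.3), with Benjamini-Hochberg adjustment over 18252 genes and no block. Calls needed an adjusted p under 0.01 and a log2 fold change beyond 0.8. Standard errors were derived from the F statistic. A further fit used the log *TGFBR2* counts as offset. Since it takes these counts as exact, intervals with the errors of both genes were added after the data were seen, as were levels, ratios and shares by the length of joined exons. The procedure was tested on simulated data. The main fit found 189 of 201 changed genes there with 0 false calls and a median error of 0.021. The fit relative to *TGFBR2* found 17994 of 18201 changed genes, with a median error of −0.134. Since 18201 of its 18251 genes were changed, few could give a false call, and the 0 false calls there say little. Plots were drawn with matplotlib 3.10.9.

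Names matched 55665 of 63677 IDs. GRCh37 positions and lengths came from a lifted GENCODE annotation, which need not be that of the counting. The members and lists were chosen with earlier results of these data known. A gene of the list of direct targets is not reported here and was left out of its counts. Named genes are the members, list genes called or not testable, and the 5 nearest to *TGFBR2*. Outside this rule, *TGFB1*, *SMAD2*, *SMAD3*, *SMAD4* and *KRT7* were named after their values were seen. So were the stellate and mesenchymal markers *COL1A1*, *SPARC*, *VIM*, *PDGFRB* and *TIMP1*. *DES*, *LRAT*, *GFAP*, *HGF*, *TTR* and *CD163* were named as markers at or near 0, and *PECAM1* as a marker without a matched ID. *SMAD7*, *SKIL* and *PMEPA1* were named only as shared by lists. Alternatives were RLE, library totals, DESeq2 1.42.0, 2 other filters, a replicate block, each library left out, glmTreat and an adjusted p of 0.05. Groups of 2 allow no exact p under 0.333. A planned search for seed matches was not made, as the mature miRNA entry was not used here.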

Additional observations from a re-analysis of the deposited data

How the results depend on the processing

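Under every alternative run except glmTreat, 4 receptors were called lower and 1 higher. With library totals alone *ENG* was at −0.81, just beyond the threshold of 0.8. All 9 other receptors had a log2 fold change above that of *TGFBR2* in each alternative of the fit relative to *TGFBR2*. With glmTreat the number called lower was 2, as *ENG* (−0.97) and *ACVR1* (−1.07) were lost. The log2 fold change of *TGFBR2* ran from −2.34 to −2.31 when single libraries were left out and was −2.14 with library totals alone. Among the receptors, directions turned only in those that were not called. With library totals alone *TGFBR1* was at 0.0012 and *BMPR1A* at 0.10. When single libraries were left out, *ACVR2B* ran from −0.11 to 0.14, being below 0 (−0.03 and −0.11) without miControl replicate 1 or miR-6133-5p replicate 2, and *ACVR1B* ran from −0.0047, without miR-6133-5p replicate 2, to 0.071. Likewise *TGFB1* ran from −0.070 to 0.24, *SMAD2* from −0.053 to 0.076 and *SMAD4* from −0.16 to 0.031, and *SMAD4* was at 0.12 with library totals alone. In the pathway lists glmTreat dropped the calls of *BMPR1B*, *BMP4*, *GDF11*, *FSTL3*, *SMAD1*, *MMP14*, *ID1* and *LTBP2*. Library totals alone moved the median of all genes from 0.03 to 0.19 and the calls over all genes from 1011 lower and 529 higher (65.6% lower) to 709 and 977 (42.1% lower), and without miControl replicate 1 the calls were 770 and 293. Over all tested genes, the deviations of the replicates numbered 1 were nearly uncorrelated between the groups (r = 0.049). This 1 correlation cannot decide whether the replicates were paired, since the labels do not say and *BMPR2* was higher in replicate 2 of both groups. With a replicate block the counts were 4, 1 and 9, the log2 fold change of *TGFBR2* was −2.31 and the calls over all genes were 1130 and 642. The search for seed matches and its alternative were not run. The depth gave every receptor at least 307 counts per library, and the number of libraries limits the precision.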
